A study of Homo sapiens with 4 samples.

Results

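Accessible regions that lie deep inside very long protein-coding genes were examined in LNCaP cells and in LNCaP cells resistant to enzalutamide. Each of the deposited summits, the single base of strongest signal in an ATAC-seq peak, was widened by 250 bp per side, and overlapping windows were merged. A merged region was kept when its strongest summit lay inside a protein-coding gene of 500 kb or more in the RefSeq table of GRCh38.p14 and over 3 kb from the end of any annotated gene. This gave 9050 member regions of 151102 in all (5.99%), spread over 314 of the 315 genes of that length. The members had a median width of 510 bp, 30 lay in more than 1 of these genes, and 150 also lay in a shorter protein-coding gene.

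ATAC-seq, which marks open chromatin by the insertions of a transposase, was run on 2 libraries of LNCaP cells, labelled wild type, and 2 of LNCaP-resistance cells, labelled as treated with enzalutamide. LNCaP is an androgen-sensitive prostate cancer line from a lymph node metastasis, and enzalutamide blocks the androgen receptor. The labels give both groups the same medium with fetal bovine serum, whereas the study's methods say that the resistant sublines were raised from LNCaP first adapted to charcoal-stripped serum, which is poor in androgen, and then given stepwise more drug. Androgen supply and resistance therefore cannot be told apart here. The study made several resistant sublines, and the labels do not say which was used or whether both libraries came from the same one. The labels do not say whether the replicates came from separate cultures, and they tag them as repeat 1 and repeat 2 of a batch.

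A very long gene is mostly intron, and its introns hold distal elements such as enhancers as well as start sites of shorter transcripts. Many of these genes encode adhesion molecules, ion channels and scaffolds of neurons, and others encode regulators that are used widely. In prostate cells, distal elements carry much of the binding of the androgen receptor and its partner FOXA1, whereas start sites tend to be open in many cell types.

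Sequence could be shown for the members that meet a start site inside the gene. To meet a start site means here to overlap its window (250 bases before to 50 after the start), whose letters RefSeq gives. The windows below belong to the 3 members with the highest mean score percentile (rank of a summit's peak-caller score within its library, where 100 is the strongest) in each of 3 presence classes: a summit in all 4 libraries (all-library), in both LNCaP libraries and neither resistant one (LNCaP-only), and the reverse (resistant-only). They are printed 5′ to 3′ on the strand of the gene, from RefSeq GRCh38.p14, and capitals mark GC boxes (GGGCGG or CCGCCC) and CCAAT boxes (CCAAT or ATTGG), 2 motifs of many promoters.
ADK, all-library, chr10:74176513-74176812 (+ strand): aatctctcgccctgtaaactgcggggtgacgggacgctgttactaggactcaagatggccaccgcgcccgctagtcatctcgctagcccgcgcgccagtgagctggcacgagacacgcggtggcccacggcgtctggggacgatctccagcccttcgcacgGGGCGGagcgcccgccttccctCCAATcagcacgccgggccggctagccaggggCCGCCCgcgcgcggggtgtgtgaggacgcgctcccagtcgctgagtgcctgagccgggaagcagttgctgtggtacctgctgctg
NRXN3, all-library, chr14:79279130-79279429 (+ strand): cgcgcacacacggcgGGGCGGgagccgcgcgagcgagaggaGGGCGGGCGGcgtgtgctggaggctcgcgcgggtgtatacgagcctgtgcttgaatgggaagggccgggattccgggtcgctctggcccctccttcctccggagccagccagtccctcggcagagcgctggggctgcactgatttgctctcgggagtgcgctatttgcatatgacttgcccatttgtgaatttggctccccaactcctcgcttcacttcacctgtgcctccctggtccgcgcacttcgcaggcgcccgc
DLG2, all-library, chr11:84437757-84438056 (- strand): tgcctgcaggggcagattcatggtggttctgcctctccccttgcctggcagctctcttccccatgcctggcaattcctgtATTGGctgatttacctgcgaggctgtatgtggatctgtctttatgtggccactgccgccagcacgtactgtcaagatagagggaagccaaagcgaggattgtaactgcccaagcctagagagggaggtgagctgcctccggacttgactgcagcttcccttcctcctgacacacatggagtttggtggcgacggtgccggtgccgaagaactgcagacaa
PTPRM, LNCaP-only, chr18:7946625-7946924 (+ strand): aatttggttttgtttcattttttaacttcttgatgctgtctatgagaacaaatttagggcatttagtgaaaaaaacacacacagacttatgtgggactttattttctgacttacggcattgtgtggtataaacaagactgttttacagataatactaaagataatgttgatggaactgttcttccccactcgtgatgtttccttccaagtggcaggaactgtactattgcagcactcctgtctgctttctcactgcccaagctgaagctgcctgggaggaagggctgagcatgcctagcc
PPFIA2, LNCaP-only, chr12:81598322-81598621 (- strand): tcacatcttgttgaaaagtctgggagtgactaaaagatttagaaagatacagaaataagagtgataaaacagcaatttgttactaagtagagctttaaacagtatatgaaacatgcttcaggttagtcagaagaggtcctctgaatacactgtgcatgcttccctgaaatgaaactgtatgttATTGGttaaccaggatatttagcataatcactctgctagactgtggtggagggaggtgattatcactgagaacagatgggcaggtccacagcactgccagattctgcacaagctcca
ADGRL2, LNCaP-only, chr1:81699358-81699657 (+ strand): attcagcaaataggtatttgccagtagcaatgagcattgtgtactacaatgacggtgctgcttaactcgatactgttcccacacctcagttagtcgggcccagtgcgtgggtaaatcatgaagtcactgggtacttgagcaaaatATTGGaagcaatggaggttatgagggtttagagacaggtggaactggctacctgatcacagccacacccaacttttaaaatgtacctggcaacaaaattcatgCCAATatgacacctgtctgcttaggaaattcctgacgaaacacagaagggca
ZNF385D, resistant-only, chr3:21751161-21751460 (- strand): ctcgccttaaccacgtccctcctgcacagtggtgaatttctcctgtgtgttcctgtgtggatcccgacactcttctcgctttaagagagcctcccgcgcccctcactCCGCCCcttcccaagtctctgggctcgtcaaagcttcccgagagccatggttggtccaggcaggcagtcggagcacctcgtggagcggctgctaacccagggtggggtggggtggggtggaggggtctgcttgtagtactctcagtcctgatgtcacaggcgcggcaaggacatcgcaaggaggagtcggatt
CTNNA2, resistant-only, chr2:79512801-79513100 (+ strand): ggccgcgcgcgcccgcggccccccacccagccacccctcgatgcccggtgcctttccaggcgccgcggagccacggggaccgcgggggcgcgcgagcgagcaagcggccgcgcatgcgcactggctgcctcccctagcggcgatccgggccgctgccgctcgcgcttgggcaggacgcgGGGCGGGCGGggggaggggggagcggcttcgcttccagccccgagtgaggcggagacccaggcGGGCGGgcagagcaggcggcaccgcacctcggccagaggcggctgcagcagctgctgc
PALM2AKAP2, resistant-only, chr9:110125251-110125550 (+ strand): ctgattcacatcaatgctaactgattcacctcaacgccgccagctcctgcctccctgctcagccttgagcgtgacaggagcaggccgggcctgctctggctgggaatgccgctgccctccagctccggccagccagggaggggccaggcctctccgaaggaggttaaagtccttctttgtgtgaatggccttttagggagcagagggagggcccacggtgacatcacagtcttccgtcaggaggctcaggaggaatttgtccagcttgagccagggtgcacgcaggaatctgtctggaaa

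The all-library trio held start sites of ADK (adenosine kinase), NRXN3 (the presynaptic adhesion protein neurexin 3) and DLG2 (a postsynaptic scaffold). The ADK window held 69.3% G and C with 34 CpG, and the NRXN3 window 67.0% with 30 CpG. The windows of the LNCaP-only trio, in PTPRM (a receptor tyrosine phosphatase that acts in cell adhesion), PPFIA2 (liprin-alpha 2, of the presynaptic zone) and ADGRL2 (the adhesion receptor latrophilin 2), held between 40.0% and 45.0% G and C and no more than 5 CpG. The resistant-only trio lay in ZNF385D (a zinc finger protein), CTNNA2 (the neuronal alpha-catenin) and PALM2AKAP2 (an anchor of protein kinase A). The CTNNA2 window was the richest of the 9 in G and C, at 80.0% with 43 CpG. Its member's strongest summit lay 383 bases before the start, outside the window. That merged region (chr2:79512343-79512918) overlapped part of the window but did not reach the start at 79513051. In DLG2 and ZNF385D the strongest summit also lay outside the window, 157 and 94 bases after the start.

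The number of summits inside very long genes was lower in both resistant libraries. LNCaP replicates 1 and 2 held 7022 and 6195 such summits, and resistant replicates 1 and 2 held 3112 and 1721, so the groups did not overlap. The ratio of resistant to LNCaP was 0.366 for these summits (0.443 within replicate 1 and 0.278 within replicate 2) and 0.519 for all summits. Total summits were 117245 and 107344 in LNCaP and 70866 and 45618 in the resistant libraries, and the read depth behind them is unknown, so part of any loss of summits cannot be told apart from a difference in depth or in signal over background.

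The share of a library's summits takes the totals into account. It was 5.99% and 5.77% in LNCaP (5.88% ± 0.154, SD, n = 2) and 4.39% and 3.77% in the resistant libraries (4.08% ± 0.438, SD, n = 2). The difference of 1.80 percentage points, with the resistant share the lower, was larger than the pooled SD of 0.328. An exact permutation test gave p = 0.333 (two-sided), the smallest value that 2 against 2 libraries allow, and the same limit holds for every comparison of the groups.

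To compare lists of the same size, the 45618 highest-scoring summits of each library were taken, as many as the shortest list holds. Very long genes then held 2277 and 2264 summits in LNCaP and 1669 and 1721 in the resistant libraries. The shares were 4.98% ± 0.0202 and 3.72% ± 0.0806 (SD, n = 2 each), and the difference of 1.26 percentage points stood against a pooled SD of 0.0587. Replicates thus lay much closer to each other than the groups did, and the order of the groups was kept.

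**Figure D1:**
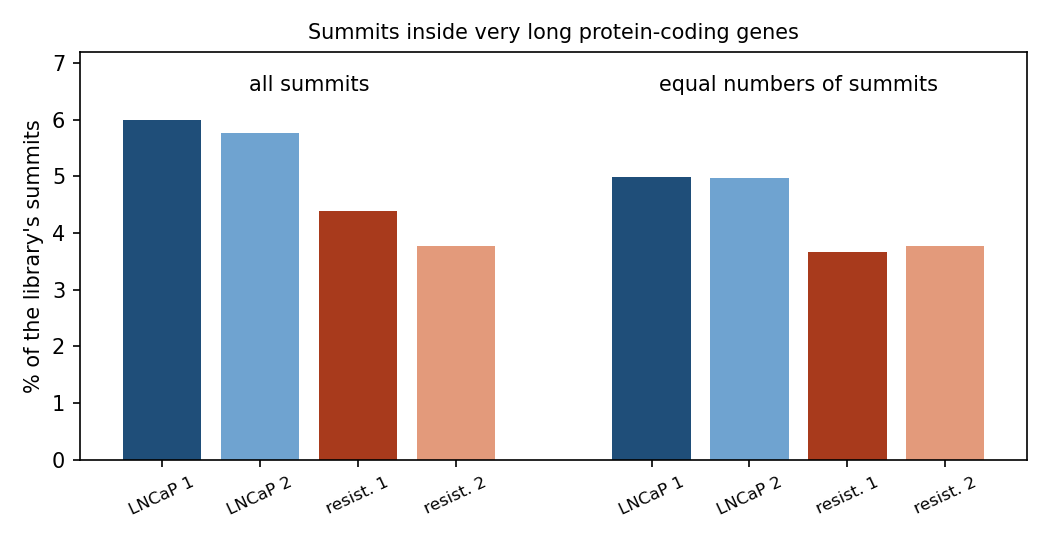
Share of each library's summits that lay inside very long protein-coding genes, in percent (y axis), for each of the 4 libraries (bars), over all summits at the left and over the 45618 highest-scoring summits of each library at the right. Both resistant bars (red) are lower than both LNCaP bars (blue) on either side, and with equal numbers the replicates are nearly level, at 4.99% and 4.96% against 3.66% and 3.77%.

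Very long genes were not alone in this. With equal numbers, genes of 200 to 500 kb had a ratio of resistant to LNCaP of 0.734, close to the 0.747 of very long genes, and the interiors of all shorter protein-coding genes together had 0.797. Regions within 3 kb of a gene end went the other way, from 38.3% ± 0.332 of summits in LNCaP to 47.1% ± 0.253 in the resistant libraries (SD, n = 2 each). As a share of the summits inside protein-coding genes, summits in very long genes made up 15.4% and 15.1% in LNCaP and 14.1% and 13.4% in the resistant libraries, a difference of 1.58 points (resistant lower; pooled SD 0.376, exact permutation p = 0.333, two-sided). Very long genes were also the sparsest: LNCaP replicate 1 had 28.6 summits per Mb of their interior, against 41.7 in genes of 200 to 500 kb and 51.1 in genes under 50 kb.

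Of the 9050 members, 3108 (34.3%) were LNCaP-only, where 27.5% of all regions were. The resistant-only class held 291 members (3.22%, against 3.84% of all regions) and the all-library class 1049 (11.6%, against 21.1%). Another 4602 were seen in another mix of libraries, and 3439 members (38.0%) had a summit in 1 library alone. By gene length, the LNCaP-only share was 34.5% at 200 to 500 kb, 33.2% at 100 to 200 kb, 32.2% at 50 to 100 kb and 28.8% under 50 kb, so very long genes stood level with the next class. The all-library share was lowest in very long genes and went up step by step as genes got shorter, through 13.9%, 15.7% and 16.4% to 18.0%, and reached 35.2% near gene ends. The counts move with the libraries used: leaving out LNCaP replicate 2 gave 4793 LNCaP-only members, and leaving out resistant replicate 2 gave 962 resistant-only and 1743 all-library members. A rule over fewer libraries is easier to meet for any region. The matching shares over all regions were not computed, so these counts show nothing particular to the members.

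**Figure D2:**
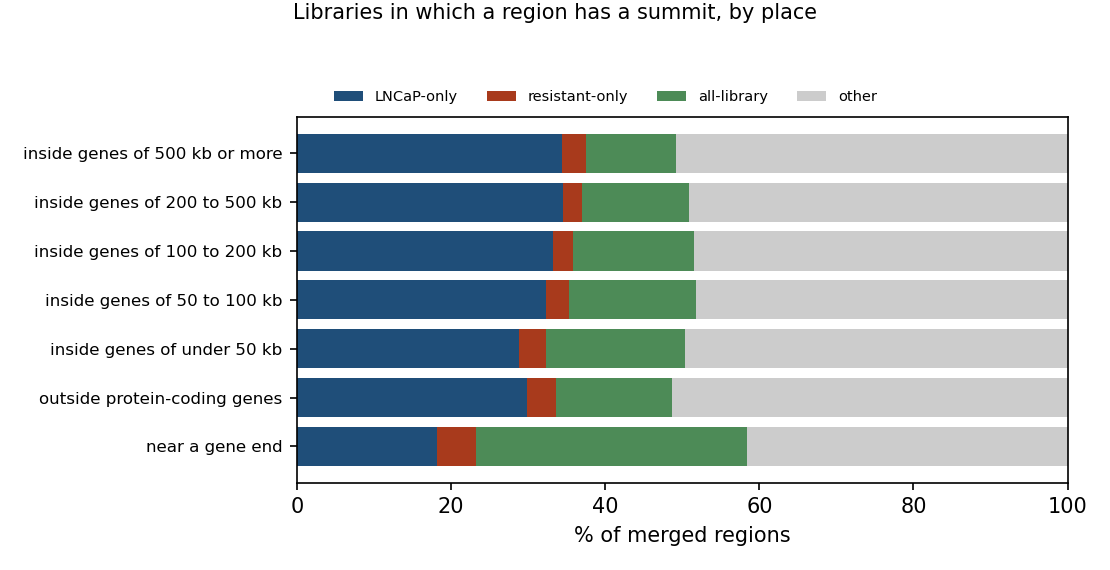
Percent of merged regions (x axis) in each presence class (colours), for the interiors of protein-coding genes in 5 length classes, for regions outside protein-coding genes and for regions within 3 kb of a gene end (rows). The blue LNCaP-only part is 34.3% in genes of 500 kb or more and 34.5% in genes of 200 to 500 kb, and the green all-library part widens from 11.6% at the top row to 35.2% at gene ends.

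With equal numbers of summits the member regions were 3876, of which 994 (25.6%) were LNCaP-only, 445 (11.5%) resistant-only and 581 (15.0%) all-library. The same shares over all regions were 17.1%, 14.9% and 26.8%, and in genes of 200 to 500 kb they were 24.9%, 10.7% and 19.0%. LNCaP-only members outnumbered resistant-only members under both counts, and the gap was smaller when lists had the same length.

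Strong members showed the same order. LNCaP replicate 1 had 493 members in the top 10% of its scores, and 1 of them (0.203%) had no summit in LNCaP replicate 2, while 183 (37.1%, 95% Wilson interval 33.0 to 41.5) had none in resistant replicate 1 and 265 (53.8%, 49.3 to 58.1) none in resistant replicate 2. Over all regions the last 2 shares were 17.8% and 25.2%, and in genes of 200 to 500 kb they were 28.1% (25.3 to 31.1) and 40.5% (37.4 to 43.7). These intervals cover counting error alone, and regions are not replicates, so they do not test a difference between length classes. For the 385 strong members of LNCaP replicate 2 the share absent from resistant replicate 1 was 34.8% (30.2 to 39.7), against 29.1% (26.1 to 32.2) in genes of 200 to 500 kb. Their share absent from resistant replicate 2 was 52.2% (47.2 to 57.2), against 40.9% (37.7 to 44.2). In the other direction, resistant replicate 1 had 75 members in its top 10%, of which 1 (1.33%) had no summit in LNCaP replicate 1 and 3 (4.0%) none in LNCaP replicate 2. Over all regions these shares were 3.10% and 3.37%, so the members did not stand apart in this direction. With lists of equal length, 43.5% and 46.4% of the 138 strong members of LNCaP replicate 1 had no summit in resistant replicates 1 and 2, against 16.3% and 17.6% over all regions. In reverse, 9.30% and 6.98% of the 43 strong members of resistant replicate 1 had none in LNCaP replicates 1 and 2, against 6.18% and 5.81% over all regions.

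The strongest LNCaP-only member lay in CAMTA1, which encodes a calmodulin-binding transcription activator, at chr1:7745723-7746224, about 961 kb from the outer 5′ end of the gene. Its score percentile was 99.3 in LNCaP replicate 1 and 98.1 in replicate 2. The next 4 lay in PTPRM (chr18:8162718-8163223, percentiles 99.5 and 97.8), the receptor tyrosine kinase gene ALK (chr2:29611178-29611710, 98.6 and 98.3), KIAA1217 (chr10:24494187-24494688, 98.3 and 98.2) and FAF1 (chr1:50950415-50950919, 99.2 and 97.3), whose product binds FAS. All 5 were among the strongest few percent of both LNCaP libraries and had no summit in either resistant library.

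The strongest resistant-only members scored lower in their own libraries. DLGAP1, a scaffold of the postsynaptic density, held the first at chr18:4444257-4444769, with percentiles of 90.2 and 85.6 in resistant replicates 1 and 2. ZNF385D followed (chr3:21750866-21751401, 88.1 and 77.1), the region whose start site is printed above, and then ANK3 (ankyrin G, chr10:60123101-60123652, 87.2 and 77.4), GPHN (gephyrin, of inhibitory synapses, chr14:67636305-67636812, 87.1 and 76.3) and SNTG1 (a syntrophin, chr8:50182910-50183464, 87.3 and 74.0). The median percentile of all resistant-only members was 45.7 in resistant replicate 1 and 30.3 in replicate 2, and that of LNCaP-only members was 50.7 and 47.8 in LNCaP.

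Members with a summit in all 4 libraries were compared by rank, which depends on how many weak summits a list holds. Their median percentiles were 75.5 and 71.5 in LNCaP and 61.7 and 41.1 in the resistant libraries. The median change, mean resistant minus mean LNCaP percentile, was -16.3 points, where it was -4.66 over all regions of the class and -15.98 in genes of 200 to 500 kb. The percentile was lower in both resistant than in both LNCaP libraries for 596 of the 1049 members (56.8%, against 41.8% of all regions of this class) and higher for 101 (9.63%, against 17.7%). In genes of 200 to 500 kb these shares were 57.8% and 10.6%, close to those of the members. The count of lower members was 1142 without resistant replicate 2. That of higher members was 223, 192 and 310 without LNCaP replicate 1, LNCaP replicate 2 and resistant replicate 2. With percentiles taken among all-library regions alone, 224 members were higher. Shares over all regions were not computed for these changes of library or ranking. With lists of equal length the median percentiles were 62.8 and 60.7 in LNCaP and 55.3 and 52.9 in the resistant libraries, and the median change shrank to -6.89 points, where it was 4.60 over all regions and -5.14 in genes of 200 to 500 kb. Of the 581 members then in the class, 241 (41.5%, against 23.7% of all regions) were lower and 138 (23.8%, against 42.8%) higher. Genes of 200 to 500 kb had 41.6% and 22.3%, again close to the members. The direction of the median was the same under both counts, and its size was smaller with equal lists.

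The 5 all-library members with the highest mean percentile over the 4 libraries, a choice that sets their high ranks, are given as a description. The ADK region, chr10:74176472-74177068, had percentiles of 99.9 and 99.4 in LNCaP and 99.2 and 98.3 in the resistant libraries. Regions in SYNE1, which encodes the nuclear envelope protein nesprin 1 (chr6:152301912-152302432), and STARD13, a START domain protein (chr13:33542532-33543049), stayed between 96.6 and 98.8 in all 4. The NRXN3 region (chr14:79278988-79279545) had 98.3 and 98.7 in LNCaP and 97.8 and 94.2 in the resistant libraries, and one in AGAP1 (chr2:236047862-236048393) had 99.9 and 98.7 against 97.7 and 91.5. The first and the fourth of these 5 sit on start sites printed above.

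The largest fall was in AGBL4, which encodes a carboxypeptidase that trims glutamates from tubulin (chr1:49346653-49347481). It ranked at percentiles 98.2 and 86.7 in LNCaP but at 4.67 and 9.58 in resistant replicates 1 and 2. CSMD2 (chr1:33660190-33660749) had 96.9 and 98.6 against 21.4 and 3.86, and KCNMA1, the large-conductance potassium channel (chr10:77287541-77288286), had 98.9 and 97.5 against 8.20 and 23.8. RAD51B, a DNA repair gene (chr14:68458699-68459449), and NRG3, a ligand of ERBB4 (chr10:82242754-82243302), completed the 5, with changes of -81.8 and -75.7 points. All 5 ranked at 86.7 or higher in LNCaP and at 25.5 or lower in the resistant libraries.

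The largest rise was in CAMTA1, at chr1:7401623-7402260, with percentiles of 13.3 and 20.4 in LNCaP and 83.6 and 72.2 in the resistant libraries. This gene thus held both the strongest LNCaP-only member and the member with the largest rise. A region of DLC1 (chr8:13133070-13133705), had 28.6 and 27.1 against 96.4 and 81.3, and one of IQCJ-SCHIP1 (chr3:159775431-159775999) had 24.5 and 27.1 against 82.2 and 83.7. CREB5, a transcription factor of the CREB family (chr7:28409068-28409580), and PDE4D, a cyclic AMP phosphodiesterase (chr5:59661212-59661773), followed with rises of 56.8 and 49.7 points. These values were used to choose the regions and are given as a description.

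**Figure D3:**
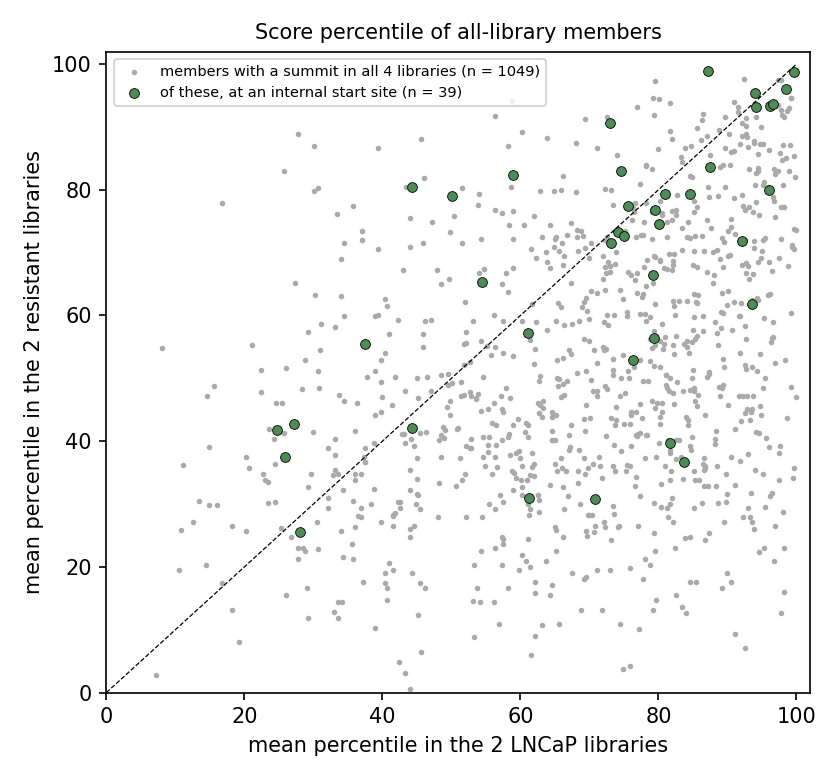
Mean score percentile in the 2 LNCaP libraries (x axis) against that in the 2 resistant libraries (y axis) for the 1049 members with a summit in all 4 libraries (grey points), with the 39 that meet a start site inside the gene in green and equality as a dashed line. Grey points lie mostly below the line, with a median change of -16.3 points, and the green points lie on both sides of it, with a median change of -2.37.

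Start sites inside the gene set a small group of members apart. RefSeq gave 319 such windows in 147 of the 263 very long genes it covered, all over 3 kb from any gene end, and 104 members met 1 or more of them. Of these 104, 39 (37.5%) were all-library, 13 (12.5%) LNCaP-only and 9 (8.65%) resistant-only, where the other 8946 members had 11.3%, 34.6% and 3.15%. LNCaP replicates 1 and 2 had a summit in 78 and 67 of the 104 and the resistant replicates in 78 and 53, a ratio of 0.903, where the other members had 0.362. The ratio was 0.731 without resistant replicate 1 and 1.12 without resistant replicate 2. For the 39 all-library members the median change was -2.37 points, against -17.0 for the other 1010.

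With equal numbers of summits, 74 members met an internal start. LNCaP had a summit in 36 and 42 of them and the resistant libraries in 59 and 52, so the order of the groups was turned, at a ratio of 1.42, while members as a whole stayed lower in the resistant libraries. Regions within 3 kb of any gene end had the same order with equal numbers. Their share of summits had a ratio of 1.23, and 17.3% were resistant-only against 9.18% LNCaP-only. The outer 5′ ends of very long genes, which the rule leaves out, were counted over all summits only, where they resembled the internal starts. Of 334 regions within 3 kb of these 5′ ends, 8.68% were LNCaP-only, 7.19% resistant-only and 46.7% all-library, and the median change of the last was 0.67 points. The 85 regions at the 3′ ends of very long genes had 20.0%, 3.53% and 21.2%, with a median change of -18.6. These are counts of regions that share libraries, so no test was made on them.

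The windows also differed in base composition. The 9 at resistant-only members had a median of 75.7% G and C and 34 CpG, and 8 of them (88.9%) held a GC box. The 13 at LNCaP-only members had 45.7%, 5 CpG and 1 window with a GC box (7.69%). The 39 at all-library members lay between, with 61.7%, 18 CpG and 14 windows with a GC box (35.9%). A GC box was held by 45.0% of all 35116 windows that RefSeq gives, and of the 204 internal windows that met no member 15.7% did. CCAAT boxes were in 0 of 9, 5 of 13 and 13 of 39 windows, against 34.6% of all windows. AP-1 sites (TGANTCA) were in 3 of the LNCaP-only windows and 1 of the resistant-only windows (7.71% of all windows), and forkhead sites (TGTTTAC or GTAAACA) in 2 and 0 (3.42%). Both strands were searched, adjoining GC and CCAAT boxes can share bases, and a match describes the letters and not binding. Classes of 9 and 13 windows allow little precision.

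The 9 resistant-only members at internal starts lay in ZNF385D, CTNNA2, PALM2AKAP2, FGF12, MECOM, SORCS1, FOXP1, CELF2 and OPCML. These 9 names fall outside the rule for named genes and were taken because the count was small. Percentiles in resistant replicates 1 and 2 ran from 88.1 and 77.1 in ZNF385D through 72.5 and 60.7 in FGF12, an intracellular fibroblast growth factor homologue, and 52.0 and 51.1 in MECOM, a zinc finger transcription factor, to 8.20 and 9.58 in OPCML, a cell adhesion molecule. By mean percentile the other five lay between ZNF385D and OPCML.

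Counted by gene, very long genes held from 2 to 116 member regions, with a median of 25, and 290 genes held 10 or more. The number went up only loosely with gene length (Spearman 0.241, Pearson 0.290, over 315 genes that share the 4 libraries). The ratio of resistant to LNCaP summits had a median of 0.371 and quartiles of 0.241 and 0.553 over 313 genes. The ratio was loosely related to that of the surroundings: against the ratio for distal summits within 2 Mb on either side, the correlation was 0.402 (Spearman) and 0.334 (Pearson) over 290 genes. By distance from the outer 5′ end, the ratio was 0.435 at 3 to 25 kb and between 0.345 and 0.399 in each bin farther in.

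The 10 genes with most member regions were led by PTPRN2, a phosphatase-like protein of secretory granules, with 116 regions and 76, 68, 44 and 17 summits in LNCaP replicates 1 and 2 and resistant replicates 1 and 2. In that order of libraries, CAMTA1 (97 regions) had 69, 68, 43 and 19, and PDE4D (91) had 79, 69, 36 and 22. KCNMA1 (83 regions) had 66, 62, 27 and 14, and DLG2 (74) had 51, 52, 25 and 13. In each of these 5 both resistant libraries were below both LNCaP libraries.

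The other five differed more among themselves. RANBP2 (71 regions), a nuclear pore protein whose table entry spans 1123 kb, had 55, 57, 15 and 5 summits, DAB1 (70), an adaptor of reelin signalling, had 58, 55, 9 and 4, and KAZN (68), a scaffold of cell junctions, had 52, 52, 12 and 4. CNTNAP2 (73), a neurexin-family protein, had 60, 51, 41 and 25, and MACROD2 (73), an ADP-ribose hydrolase, had 51, 41, 42 and 27, where the groups overlapped. LNCaP-only shares ran from 15.1% in MACROD2 and 17.8% in CNTNAP2 to 49.3% in RANBP2 and 51.4% in DAB1.

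Among genes with 10 or more members, the LNCaP-only share was high in ATP8A2, a phospholipid flippase, at 72.2%, with 37, 31, 3 and 3 summits. VPS13B, a lipid transfer protein of the Golgi, had 65.5%, and RGS6, a regulator of G protein signalling, 64.1% with 33, 34, 5 and 0 summits. UNC13C, a factor of synaptic vesicle priming, had 62.5%, the nuclear receptor gene RORA 62.2% with 41, 35, 7 and 4 summits, PHACTR1 61.9% and TRHDE 61.5%. All of these were lower in both resistant libraries, which a choice by LNCaP-only share favours, so this is given as a description. The median share over the 290 genes was 33.3%.

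Summits inside the gene were fewer in both resistant than in both LNCaP libraries for 259 of 314 very long genes (82.5%), where 56.3% of all protein-coding genes with such a summit, and 83.6% of those of 200 to 500 kb, met that rule. They were more in 4 genes (1.27%, against 1.81%). LINGO2, a neuronal leucine-rich repeat protein, had 1, 1, 7 and 3 summits, and SORCS1, a sorting receptor, 2, 1, 5 and 3. SPOCK3, an extracellular proteoglycan, had 5, 4, 9 and 6, and SNTG1 had 4, 4, 7 and 5. Compared within each replicate number, 7 genes were higher in both pairs, and 10 and 26 were higher without LNCaP replicate 1 and without resistant replicate 2. The matching shares of all protein-coding genes were not computed for these counts. Per 10000 summits of the library, 185 genes (58.9%) were lower, against 40.0% of all genes, and 53 (16.9%) were higher, against 19.2%. In genes of 200 to 500 kb these shares were 57.6% and 12.7%, so the lower share was close to that of the next class.

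The 3 longest genes did not follow one pattern. RBFOX1, a splicing regulator of 2474 kb, had 29, 23, 13 and 11 summits. CNTNAP2 of 2304 kb is given above. PTPRD of 2299 kb, a receptor tyrosine phosphatase, had 8, 2, 19 and 7, with 1 LNCaP-only and 4 resistant-only members among 24. The 1 very long gene without a member was PCDH11Y, a protocadherin gene on chromosome Y.

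**Figure D4:**
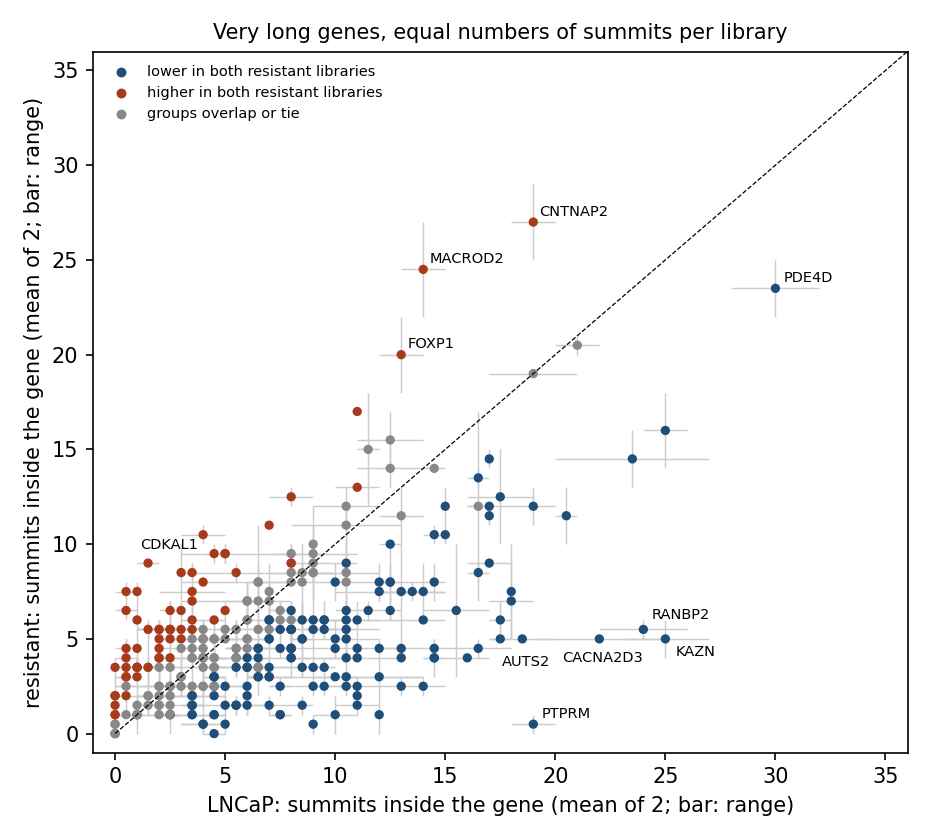
Mean number of summits inside each very long gene in LNCaP (x axis) and in the resistant libraries (y axis), counted over lists cut to 45618 summits each. Bars give the range of the 2 libraries, and the dashed line is equality. Blue genes (145) are lower and red genes (62) higher in both resistant libraries, and PTPRM, with 20 and 18 against 1 and 0, and MACROD2, with 13 and 15 against 22 and 27, stand on opposite sides.

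Over all summits, 259 of 314 very long genes were lower in both resistant libraries and 4 were higher. With equal numbers of summits the lower genes were fewer and the higher genes more. Of 312 very long genes with a summit, 145 (46.5%) were then lower, against 30.0% of all protein-coding genes, and 62 (19.9%) were higher, against 14.6%. Both shares were above those of all genes, and shares by gene length were not computed for these counts. The 8 genes with the largest differences in each direction are named, a choice made after their values were seen. KAZN had 23 and 27 summits in LNCaP and 6 and 4 in the resistant libraries, PTPRM 20 and 18 against 1 and 0, and RANBP2 26 and 22 against 6 and 5. CACNA2D3, a calcium channel subunit, had 25 and 19 against 5 and 5, AUTS2, a partner of Polycomb proteins, 17 and 20 against 5 and 5. AGBL4 had 17 and 18 against 5 and 5, KIAA1217 15 and 18 against 5 and 4, and RORA 15 and 17 against 4 and 4. Choosing the largest differences favours gaps wider than those between replicates, so the values of these 8 genes are given as a description.

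In the other direction, MACROD2 had 13 and 15 summits in LNCaP and 22 and 27 in the resistant libraries, and CNTNAP2 had 18 and 20 against 29 and 25. CDKAL1, a tRNA-modifying enzyme, had 2 and 1 against 9 and 9, PTPRD 1 and 0 against 8 and 7, and FOXP1, a forkhead transcription factor, 14 and 12 against 22 and 18. MAGI2, a membrane-associated scaffold, had 5 and 3 against 11 and 10, INPP4B, a phosphoinositide phosphatase, 1 and 1 against 7 and 8, and the glypican gene GPC6 11 and 11 against 17 and 17, level in difference with FOXP2, another forkhead factor, at 0 and 1 against 6 and 7. With all summits counted, none of the genes named in this paragraph so far was higher in both resistant libraries. CNTNAP2, GPC6 and FOXP1 were instead lower in both resistant libraries (GPC6 had 37, 32, 24 and 17, and FOXP1 had 41, 44, 30 and 18), so their direction depends on whether the totals are equalised. LINGO2, SORCS1, SPOCK3 and SNTG1 were higher under both counts.

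The gene maps show where these summits lay. KAZN had summits along its whole length in LNCaP, with percentiles up to 98.6 and 98.0, while the resistant libraries kept 12 and 4, none above 58.2 and 38.1. PTPRM had 50 and 37 summits in LNCaP with percentiles up to 99.5 and 97.8, 4 in resistant replicate 1 with the highest at 39.2, and 0 in resistant replicate 2. CNTNAP2 and MACROD2 kept summits along the gene in all libraries, with the highest percentiles at 89.95 and 86.1 (CNTNAP2) and 85.8 and 80.2 (MACROD2) in the resistant libraries. No resistant library had a summit in the top 10% of its scores in any of these 4 genes.

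**Figure D5:**
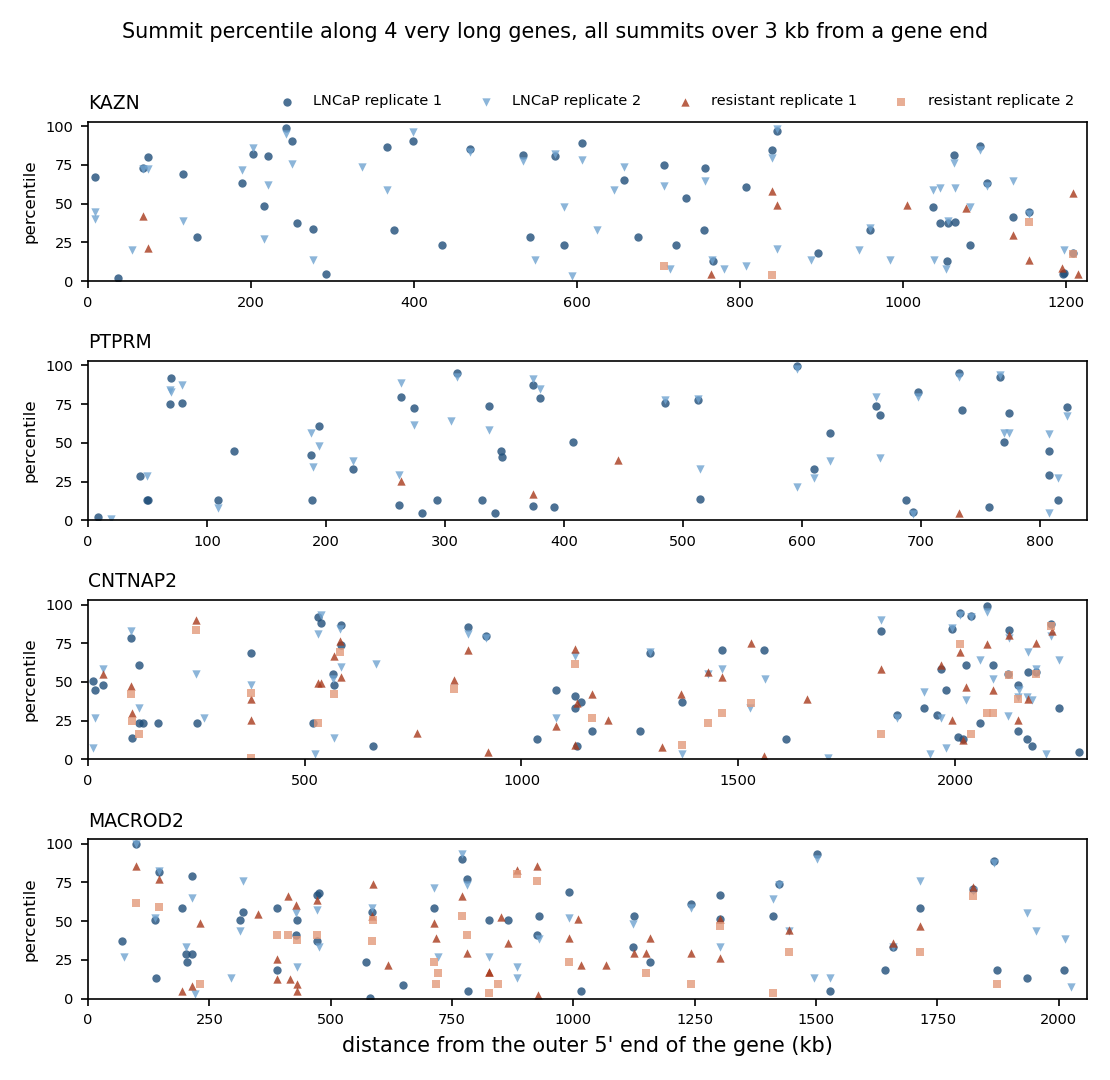
Score percentile (y axis) of each summit over 3 kb from a gene end, by distance in kb from the outer 5′ end of the gene (x axis), in KAZN, PTPRM, CNTNAP2 and MACROD2 (panels), with 1 colour and marker per library. The LNCaP libraries (blue) hold nearly all points in KAZN and PTPRM, where the resistant libraries (red) have 12 and 4, and 4 and 0, and the colours mix along CNTNAP2 and MACROD2.

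Gene groups were compared with very long genes as a whole, of which 259 of 315 were lower and 4 higher, with a median ratio of resistant to LNCaP summits of 0.371. Of 42 very long genes for synapse and cell adhesion, 34 were lower and 0 higher, with a median ratio of 0.359. NRXN3 in this list had 51, 41, 14 and 3 summits, and DLGAP2, a postsynaptic scaffold, 37, 37, 26 and 10. Of 18 channel and receptor genes 15 were lower, with a median ratio of 0.396. CACNA2D3 had 47, 40, 8 and 5, CACNA1C, the pore of an L-type calcium channel, 41, 37, 9 and 6, and GRM7, a glutamate receptor, 31, 28, 12 and 6.

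Of 21 transcription regulators 18 were lower (median ratio 0.422), with AUTS2 at 50, 46, 9 and 5 summits and AFF3 at 34, 31, 28 and 18. Of 29 signalling enzymes 22 were lower (0.424), with PTPRM at 50, 37, 4 and 0 and SMYD3, a lysine methyltransferase, at 34, 31, 20 and 11. Of 19 genes at common fragile sites, which break under replication stress, 17 were lower (0.369), and of 5 genes for RNA-binding proteins 4 were (0.462). In that last list RBFOX3 had 40, 40, 21 and 5 summits, CELF2 14, 14, 5 and 2, and RBMS3 14, 12, 7 and 6. The median ratios of the 6 lists lay between 0.359 and 0.462, around that of all very long genes. With equal numbers, 145 of all 315 very long genes (46.0%) were lower and 62 (19.7%) higher. The genes lower and higher were then 19 and 8 of the 42 adhesion genes, 7 and 5 of 18 channels, and 7 and 6 of 21 transcription regulators. They were 10 and 7 of 29 enzymes, 10 and 5 of 19 fragile-site genes, and 2 and 0 of 5 RNA-binding genes.

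Chromosomes differed as well. The LNCaP-only share of members was highest on chromosomes 22 (48.4% of 93), 15 (47.3% of 256) and 18 (44.0% of 141). It was lowest on chromosomes X (21.0% of 119), 7 (25.4% of 835), 17 (25.9% of 224) and 4 (26.7% of 386). The shares over all regions of each chromosome were not computed, so these shares show nothing particular to the members. As examples of opposite direction, the ratio of resistant to LNCaP summits on chromosome 22 was 0.271 in very long genes and 0.453 in shorter ones, and on chromosome 4 it was 0.489 and 0.419. Chromosome 22 has only 3 such genes, so its share rests on few genes.

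At the limits of the rule, the shortest genes inside it were AFF2 (500047 bp), with 1, 1, 2 and 1 summits, and PPP2R2B (500779 bp), with 15, 12, 7 and 4. The longest genes left out were DIAPH3 (498346 bp), with 12, 8, 5 and 2, and CPQ (498260 bp), with 23, 20, 10 and 6. The member nearest to a gene end lay 3002 bp from it and the farthest region left out for this reason 2999 bp.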

How the data were processed

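ATAC-seq summit lists of 4 libraries were used, 2 of LNCaP and 2 of LNCaP-resistance cells. The submitters' processing notes name hg38, Bowtie2 2.2.5, SAMtools 1.6, MACS2 2.2.6, deepTools 3.5.2, HOMER 4.11 and edgeR 3.22.5 without saying what each did. The authors deposited 1 summit list per library, with positions and a score, the −log10 of a p-value or q-value as MACS2 writes it (which one is not given in the sources used here). The lowest scores were 1.31 to 1.34. Scores grow with read depth, which the lists do not give, so they were turned into percentiles within each library. Counting intervals cover counting error only.

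Summits were widened by 250 bp per side, merged and placed in RefSeq genes of GRCh38.p14, the same assembly series as hg38, by position alone; exon and intron were not separated. Strand came from the RefSeq start-site table (263 of 315 genes). A group difference in a library share was tested with an exact permutation test (scipy 1.17.1; Python 3.11.15, pandas 2.3.3); regions and genes are not replicates and were described by counts. Named genes were the 10 with most members, the 8 with the highest LNCaP-only share, those higher in every resistant library, the 3 longest, and up to 4 per list; named regions were the 5 extremes of each class. A gene that the rule selects is not reported here. Members and lists were chosen with earlier results of these data known. The code was tested on simulated data with planted regions and classes, all of which it found. Each choice of window, score, list size, gene length, distance, presence rule and library was changed in turn.

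The labels call the replicate number a batch, so comparisons were repeated within it. Over 31869 all-library regions, the deviations of same-numbered libraries from their group means had a correlation of -0.0128 (Pearson, 2 pairs). No 2 libraries shared an identical summit and score.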

Additional observations from a re-analysis of the deposited data

How the results depend on the processing

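Of 213 summary values over 13 results and their alternatives, 158 moved little, 52 moved, and 3 changed direction, all 3 of them the ratio of resistant to LNCaP at internal starts, which passed 1 with a score of at least 10, with equal numbers and without resistant replicate 2. In the alternatives that moved, the cause was not tested beyond what their construction sets (fewer summits, genes or libraries). For changed settings, shares over all regions or genes were computed only with equal numbers (main presence rule) and per 10000 summits. The other counts in this section cover members or very long genes alone and show nothing particular to them. With a score of at least 10, members were 4466, LNCaP-only 1550, resistant-only 109 and all-library 369, of which 151 were lower and 36 higher in percentile, the internal-start ratio was 1.06 and strong members absent from resistant replicate 1 were 46.3%. With equal numbers of summits these were 3876, 994, 445 and 581, with 241 lower, genes lower 145 and higher 62, a ratio of 1.42 and 43.5%. With presence in at least 1 library of a cell type, the classes held 5779, 1059 and 2212 members, with 1348 lower and 351 higher, and with equal numbers as well 1704 LNCaP-only and 1116 resistant-only. A 300 kb minimum gave 17113 members, 5918 LNCaP-only, 469 resistant-only and 2119 all-library, 1223 lower and 211 higher, 656 genes lower and 32.1% absent. A 1 Mb minimum gave 2510, 765, 91 and 282, with 164 lower and 24 higher, 55 genes lower and 1 higher, and 30.8%. Percentiles taken among all-library regions, chosen after seeing the data, gave 224 higher members, and counts per 10000 summits, also chosen then, 53 higher genes.

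Leaving out 1 library gave 3179 to 4793 LNCaP-only, 340 to 962 resistant-only and 1098 to 1743 all-library members, 653 to 1142 lower and 110 to 310 higher in percentile, 4 to 26 genes higher, and an internal-start ratio of 0.731 to 1.12. With the replicate block, 7 genes were higher, and no other summary value moved by over 1.5 times.

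Of 698 values for named genes and regions, 7 changed direction. With equal numbers the difference in summits, resistant minus LNCaP, was 8.0 in CNTNAP2, 0.5 in RBMS3, 7.0 in FOXP1 and 3.5 in AFF3, and per 10000 summits it was 0.70 in CNTNAP2, 0.29 in FOXP1 and 1.05 in AFF3. Depth is unknown, so an absent summit means no call and not closed chromatin, and 2 libraries per group cannot reach a p under 0.333.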
